A study of Arabidopsis thaliana with 6 samples.

Results

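A set of 8 MADS-box genes known from the Arabidopsis root was followed across the root apex. They are XAL1 (AGL12, AT1G71692), XAL2 (AGL14, AT4G11880), AGL16 (AT3G57230), AGL17 (AT2G22630), AGL19 (AT4G22950), AGL21 (AT4G37940), AGL42 (AT5G62165) and ANR1 (AGL44, AT2G14210). They were listed by locus, with earlier results of these data known, and all 8 were on the array, among 22746 probe sets tested. Each had 1 probe set whose name carries no mark of matching related transcripts. Probe sequences were not checked. The plants were untreated wild-type Col-0 seedlings, 8 days old, grown on upright plates of solid medium under continuous light. Zone II was the 1.5 mm piece that held elongating and hair-bearing tissue, and zone I was the 0.5 mm tip, which held the cap and the dividing cells. Each zone had 3 arrays, from amplified RNA. The labels do not say whether these came from separate sets of seedlings. The p-values therefore rest on differences among arrays of a zone, and these may be technical.

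MADS-box proteins are transcription factors that bind DNA as dimers at a short AT-rich sequence, the CArG box. Most were first studied in flowers and flowering time, but several are made mainly in roots. AGL16, AGL17, AGL21 and ANR1 form one clade, the AGL17 clade. XAL2, AGL19 and AGL42 belong to the clade of the flowering regulator SOC1, and XAL1 stands in a clade of its own. Mutants of XAL1 and XAL2 have short roots, and ANR1 and AGL21 act in lateral root growth under changing nitrogen supply.

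Signals are the linear probe set intensities deposited by the authors, scaled to the same trimmed mean on every array. A signal has a scale of its own for each probe set, so levels were compared between zones and not between genes. Between 35.2% and 39.6% of probe sets had a signal under 64 on an array, and no detection calls were available. Differences are log2 of zone II minus log2 of zone I. Positive values thus mean more signal in zone II. A gene was called at an adjusted p under 0.05 (limma, Benjamini-Hochberg over all probe sets).

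The marker genes of the tissues behaved as the dissection labels describe, but they were chosen with earlier results of these data known. All 4 root hair markers, all 3 endodermis markers, all 3 phloem markers and all 3 xylem markers were higher in zone II. All 4 markers of dividing cells, both measured stem cell niche markers and 3 of 4 root cap markers were higher in zone I. With single arrays left out, CDKB2;1 and BRN1 lost the call without zone I array 2, and AUR1 and FEZ without zone I array 2 or 3, at adjusted p-values of up to 0.0541, 0.0562, 0.0530 and 0.0730 (limma). The summed signal of the dividing-cell markers was 355 to 1207 in zone II, where array 1 was highest, and 2881 to 5171 in zone I. Of the shoot markers, STM and CLV3 had signals under 64 on 10 of their 12 measurements. RBCS1A, a Rubisco subunit gene, was higher in zone II, at 705 to 2435 against 139 to 409 in zone I, on a probe set that may also read its close copies.

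Of the 8 genes, XAL1 and AGL16 were higher in zone II, AGL17 and AGL21 were higher in zone I, and AGL42, AGL19, XAL2 and ANR1 did not pass. In all, 4 of 8 were called, where 37.9% of all probe sets were. Among all probe sets, those higher in zone II made up 18.1% and those higher in zone I 19.8%, so 2 genes each way among 8 is close to the array as a whole. The arrays of the zones did not overlap for 5 of the 8 genes, against 49.9% of all probe sets. The median difference was 0.67 for the 8 genes, set by AGL42 and XAL2, which did not pass, and -0.04 for all probe sets. With 64 added to every signal these medians were 0.23 and -0.01.

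XAL1 had the largest called difference of the 8. It promotes cell proliferation in the root meristem and the change to flowering, and its transcript is known from the phloem. Its signal was 1819, 2357 and 1239 on the zone II arrays, against 380.4, 541 and 435 on the zone I arrays. The lowest zone II array was more than double the highest zone I array. The means were 1805 ± 559 in zone II and 452 ± 81.7 in zone I (SD, n = 3 each). XAL1 was 3.90-fold higher in zone II (log2 scale 1.96 ± 0.26, SE, n = 3 per zone, limma adjusted p = 0.000151). The summed signal of the phloem markers SUC2, APL and SEOR1 was 1578 to 2362 in zone II and 282 to 337 in zone I. The rise was not particular to phloem. The xylem sum was 3139 to 4965 in zone II and 62.6 to 254 in zone I, and the root hair and endodermis sums also rose. Sums of the dividing-cell, niche and cap markers were lower in zone II. The part of these tissues in the XAL1 difference was not tested. In pieces of tissue, a change in the share of expressing cells and a change in RNA per cell cannot be told apart.

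The AGL17 clade was divided. AGL16 acts in stomatal development and in flowering time and is a target of the microRNA miR824. Its signal was 1396, 1972 and 1497 in zone II, against 567, 652 and 656 in zone I. All zone II arrays lay above all zone I arrays, and the zone I arrays lay close together. AGL16 was 2.57-fold higher in zone II (log2 difference 1.36 ± 0.20, SE, n = 3 per zone, limma adjusted p = 0.000333).

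AGL17, which promotes flowering in long days and is known from root tissue, went the other way. It had signals of 533, 546 and 638 in zone II, against 1326, 1183 and 1201 in zone I. The 2 sets of arrays were well apart, with little spread within each. AGL17 was 2.16-fold lower in zone II (-1.11 ± 0.19, SE, n = 3 per zone, limma adjusted p = 0.000907).

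AGL21, which promotes lateral root formation and holds back seed germination, also fell in zone II. Its signal was 1189.6, 1081 and 1123 there, against 2077, 1878 and 1692 in zone I. The zones did not overlap. The difference was the smallest of the called ones, 1.66-fold lower in zone II (-0.73 ± 0.17, SE, n = 3 per zone, limma adjusted p = 0.00613). Without the intensity trend in the variance model the adjusted p of AGL21 was 0.0578, and the call ended.

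ANR1, the member of this clade known for the growth of lateral roots toward nitrate, was dim on every array. Its signal was 19.1, 2.09 and 50.9 in zone II, against 4.31, 2.31 and 5.76 in zone I. The zones overlapped, and all 6 values lay under 64. The difference of 1.71 ± 1.30 (SE, n = 3 per zone) did not pass (limma adjusted p = 0.349), and its 95% interval ran from -1.16 to 4.59. It was 0.33 with 64 added, and it ranged from 0.71 without zone II array 3 to 3.01 without zone II array 2.

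**Figure D1:**
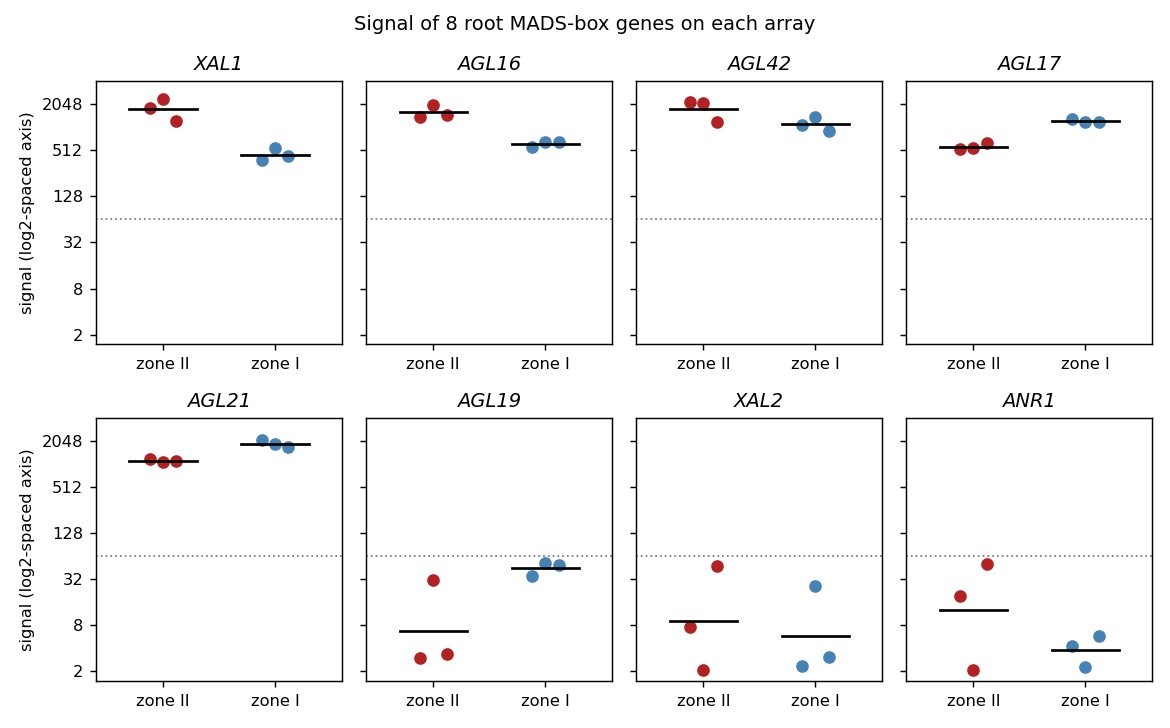
Signal of each of the 8 genes (vertical axis, log2-spaced, no unit) on the 3 arrays of zone II (red, left) and the 3 arrays of zone I (blue, right). Points are arrays, the black line is the geometric mean and the dotted line marks a signal of 64. XAL1 and AGL16 sit higher in zone II, AGL17 and AGL21 sit higher in zone I, and AGL19, XAL2 and ANR1 lie under 64 on all 6 arrays.

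AGL42 is known from a reporter in the quiescent centre, the small group of slowly dividing cells in the stem cell niche, and from the control of flower ageing. Its signal was 2168, 2137 and 1189 in zone II, against 1089.9, 1403 and 912 in zone I. Zone II arrays 1 and 2 lay above every zone I array, and zone II array 3 lay among them. AGL42 did not pass, with a difference of 0.66 ± 0.26 (SE, n = 3 per zone, limma adjusted p = 0.0714) and a 95% interval of 0.08 to 1.24. It passed without zone II array 3 (0.95, limma adjusted p = 0.00749) and with array weights (0.71, limma adjusted p = 0.0439). The niche factors PLT1 and PLT2, by contrast, had summed signals of 3.65 to 29.7 in zone II and 413 to 577 in zone I. WOX5, the main marker of the quiescent centre, had no probe set here.

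AGL19, a flowering activator that responds to cold and is held silent by Polycomb proteins, had signals of 3.03, 30.9 and 3.35 in zone II, against 35.4, 51.5 and 48.7 in zone I. The zones did not overlap, but all 6 values lay under 64. The difference of -2.72 ± 1.0997 (SE, n = 3 per zone) did not pass (limma adjusted p = 0.0757), and its 95% interval ran from -5.14 to -0.29. It shrank to -1.23 with 16 added and to -0.53 with 64 added (limma adjusted p = 0.0505). It passed after quantile normalization (-2.99, limma adjusted p = 0.0494) and without zone II array 2 (-3.81, limma adjusted p = 0.0175).

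XAL2, which acts in the meristem and in auxin transport, had signals of 7.50, 2.09 and 47.9 in zone II, against 2.36, 25.7 and 3.06 in zone I. A single array in each zone stood above the other two. The difference of 0.67 ± 1.43 (SE, n = 3 per zone) did not pass (limma adjusted p = 0.762), with a 95% interval of -2.48 to 3.82. It turned to -0.53 without zone II array 3, so the sign rested on that array.

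**Figure D2:**
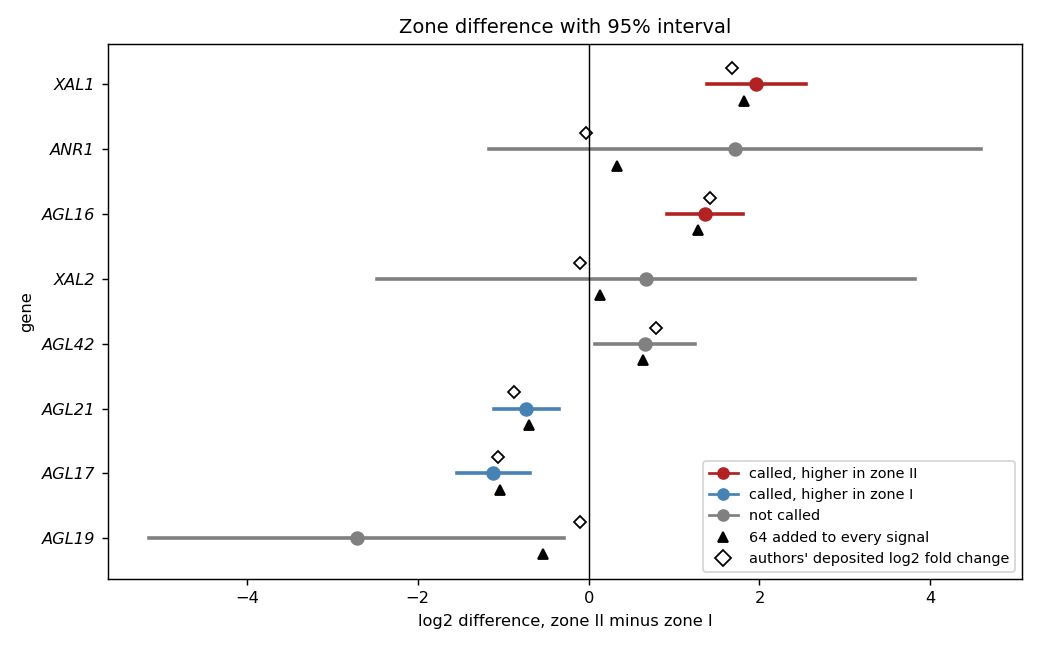
Difference of each of the 8 genes (horizontal axis, log2 of zone II minus zone I) with its 95% interval from limma. Triangles show the same difference with 64 added to every signal, and open diamonds show the authors' deposited log2 fold change. For the 4 called genes both marks lie inside the interval, while AGL19, XAL2 and ANR1, at -2.72, 0.67 and 1.71, move toward 0.

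The authors' deposited table gives its own log2 fold change and adjusted p for each probe set. It was taken to run as zone II over zone I, since it correlated with the difference in signal over all probe sets (r = 0.87). In the authors' deposited table XAL1 lay at 1.68 and AGL16 at 1.42, while AGL17 lay at -1.06 and AGL21 at -0.87, all 4 with an adjusted p under 0.05. AGL42 lay at 0.79 with an adjusted p of 0.0435 in the authors' deposited table, which made 5 of 8 genes called there, against 45.6% of all probe sets. AGL19 lay at -0.10, XAL2 at -0.10 and ANR1 at -0.03 in the authors' deposited table, with adjusted p-values of 0.595, 0.591 and 0.893. The test behind those values is not given in the sources used here.

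Zone differences were also compared between the 5 brighter genes, as the log2 ratio of their signals on each array, in all 10 pairs. AGL16 and AGL17, of the same clade, differed most within it. Their zone differences were 2.48 apart, and the log2 ratio of AGL16 to AGL17 was 1.23 to 1.85 on zone II arrays and -1.23 to -0.86 on zone I arrays. AGL16 and AGL21 were 2.09 apart. Ratios of AGL16 or XAL1 to AGL17 or AGL21 had to separate between zones, since these genes' own arrays already did so in opposite directions. AGL17 and AGL21, which both fell in zone II, were -0.38 apart, and the ratio of AGL17 to AGL21 was -1.16 to -0.82 in zone II and -0.67 to -0.50 in zone I. With 3 arrays per zone the smallest two-sided exact permutation p is 0.1. It was reached by 8 of the 10 pairs, adjusted to 0.125 over the pairs, so this test could not pass at any size of difference. The other pairs were XAL1 with AGL16 (0.60 apart) and AGL16 with AGL42 (0.70 apart), both with an exact p of 0.2. The ratio ranges of these 2 pairs overlapped between zones.

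The 5 brighter genes were each set beside the 3 genes with the most similar pattern over the 6 arrays. Likeness was the root mean square difference of log2 signals centred on each gene's mean. The patterns of XAL1, AGL16, AGL17 and AGL21 follow the 2 zones, so high correlations are common in this design. Nearest to XAL1 was AT3G56880, a VQ motif protein (0.117, r = 0.99), and nearest to AGL16 was SPL7, the copper response factor (0.0911, r = 0.99). AGL17 was nearest to AT1G19140, annotated as an unknown protein (0.0467), followed by the proteasome subunit gene PBD1 (0.0655). AGL21 was nearest to the zinc finger gene COL3 (0.0656). For AGL42, whose zones overlapped, the nearest gene was MEE60, at 0.137. The nearest genes of the other members were closer, but AT3G19990, among the 3 nearest to XAL1, lay at 0.138. MEE60 was not called (limma adjusted p = 0.189). In zone II both genes were lowest on array 3, at 1189 (AGL42) and 313 (MEE60).

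Beyond these 8, 67 other MADS-box genes were measured, and most were dim. In 54 of them the brighter zone had a geometric mean signal under 64. It lay above 140.3, the median of all signals, in 5 of the 67 and in 5 of the 8 root genes. Among all 22746 probe sets it lay under 64 in 6992 and above 140.3 in 13317, so the root genes were close to the array as a whole. Limma called 4 of the 67, 2 in each direction, where 37.9% of all probe sets were called. The largest of these toward zone II was AGL45, annotated as a MADS-box protein, with 78.4, 258 and 334 in zone II, against 10.9, 24.3 and 17.6 in zone I. Its difference was 3.50 ± 0.75 (SE, n = 3 per zone, limma adjusted p = 0.00336), or 1.69 with 64 added. AGL87 lay at -3.93 (-1.06 with 64 added, limma adjusted p = 0.00896), with 41.8, 115 and 103 in zone I. AGL46 lay at 3.20 and the floral gene AGL6 at -3.19 (0.50 and -0.60 with 64 added). Signals were under 64 on all 6 arrays for AGL46 and on 5 for AGL6. In the authors' deposited table AGL6 lay at -0.16 with an adjusted p of 0.323. AGL46 and AGL6 each lost the call when single arrays were left out, to adjusted p-values of up to 0.121 and 0.103 (limma).

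Among the other members of the SOC1 clade, SOC1 itself, a main integrator of flowering signals, did not pass. Its signal was 2.57, 82.8 and 37.7 in zone II, against 116, 199.5 and 157 in zone I. All zone I arrays lay above all zone II arrays, with zone II array 1 far below the others. The difference was -2.94 ± 1.11 (SE, n = 3 per zone, limma adjusted p = 0.0591), or -1.46 without zone II array 1. With 64 added it was -1.13 and passed (limma adjusted p = 0.0168), and in the authors' deposited table it was -1.36 with an adjusted p of 0.0028. AGL71 and AGL72, close relatives of AGL42, had signals under 64 on every array. Limma called none of the 9 flowering-time genes of the family and none of the 6 pollen-type MIKC* genes, where 37.9% of all probe sets were called. At an unadjusted p under 0.05 there were 1 and 0 (45.3% of all probe sets), and there were 0 and 0 in the authors' deposited table (45.6%). Of 17 floral organ genes, limma called 1.

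**Figure D3:**
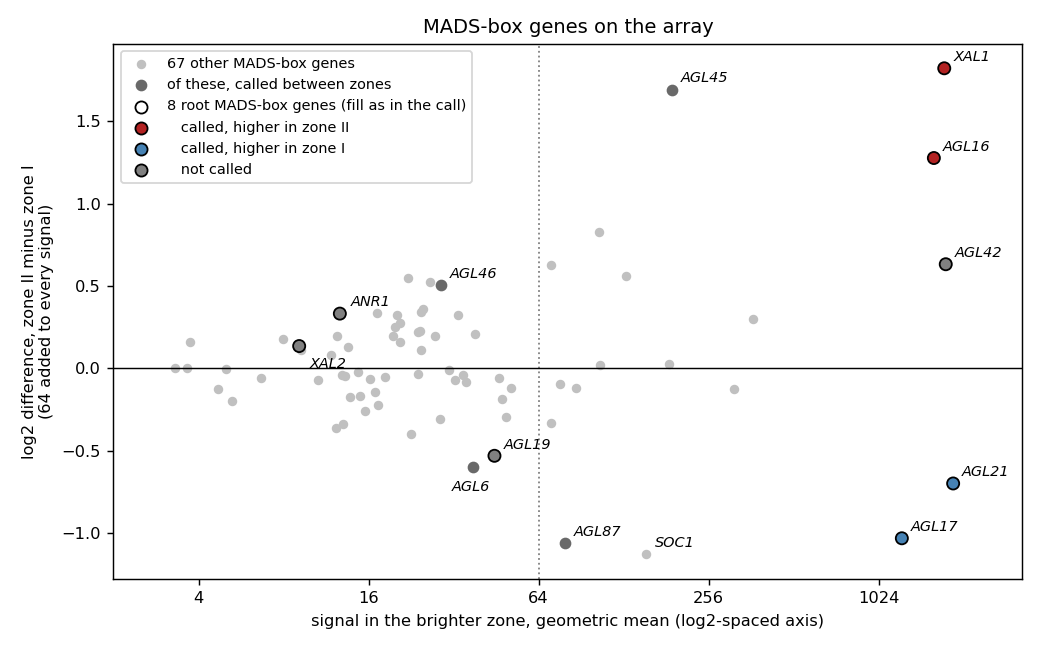
All measured MADS-box genes, with the geometric mean signal of the brighter zone (horizontal axis, log2-spaced) and the log2 difference, zone II minus zone I, after 64 was added to every signal (vertical axis). Grey points are the 67 other family genes, dark grey the 4 of them called, and outlined points the 8 root genes. The root genes XAL1, AGL16, AGL42, AGL17 and AGL21 lie at the right, and 54 of the 67 others lie left of the dotted line at 64.

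ANR1 is known to act in the response to nitrate, downstream of the transporter and sensor NRT1.1, and AGL21 also responds to nitrogen. Genes of nitrate uptake, sensing and reduction were therefore set beside them, in a list written with earlier results of these data known. Its counts thus describe the list and are not a test of it. Limma called 13 of 22 higher in zone II (18.1% of all probe sets) and 0 higher in zone I (19.8%). At an unadjusted p under 0.05 the counts were 15 and 0 (21.4% and 23.9% of all probe sets). There were 15 and 1 in the authors' deposited table (20.0% and 25.6%), with LBD39 the one lower in zone II. The list median was 1.43, against -0.04 for all probe sets, or 1.11 and -0.01 with 64 added. The brighter zone lay above 140.3, the median of all signals, in 18 of the 22 and in 13317 of all 22746 probe sets. Shares were not compared among probe sets of like brightness.

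NRT1.1 had signals of 1770.3, 1626 and 1160.2 in zone II, against 146, 148 and 181 in zone I. The zones were far apart, a difference of 3.24 ± 0.25 (SE, n = 3 per zone, limma adjusted p = 6.16e-06). NLP7, the transcription factor that carries the nitrate signal into the nucleus, lay at 3.08, and its relative NLP6 lay at 1.64. The bZIP factors TGA1 and TGA4 lay at 2.59 and 3.54, and NAC4, a root nitrate factor, lay at 4.90 (1.36 with 64 added). Nitrate reductase NIA2 and nitrite reductase NIR1 lay at 1.75 and 1.35. The repressors of nitrogen responses LBD37 and LBD38 lay at 2.06 and 1.34, while LBD39 lay at -0.31 and did not pass (limma adjusted p = 0.228). The kinases CIPK8 and CIPK23 lay at 1.68 and 0.81 and the vacuolar nitrate transporter CLC-A lay at 1.04. The high-affinity transporters NRT2.1 and NRT2.2 had signals under 64 on all arrays and did not pass. Brighter genes of the list also did not pass. NRG2 lay at -0.11, with signals of 528 to 1172 over all arrays, and AFB3 lay at 0.09, with 357 to 503. NIA1, TCP20, NRT3.1 and BT2 lay at 0.56, 1.13, 1.51 and 1.50 and did not pass.

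Some auxin genes have been reported to respond to XAL2 or AGL21, and 4 of them are given here. PIN4, an auxin efflux carrier linked to XAL2, lay at -0.21 ± 0.26 and did not pass (SE, n = 3 per zone, limma adjusted p = 0.587). YUC5 and YUC8, auxin synthesis genes linked to AGL21, lay at 3.96 ± 0.90 and 2.17 ± 0.33 (SE, n = 3 per zone, limma adjusted p = 0.00487 and 0.000403). All zone I signals of YUC5 lay under 64, and its difference was 1.69 with 64 added. TAR3 lay at 2.87 (1.22 with 64 added), on a probe set that may also read a related gene. The YUC genes were thus higher in the zone where AGL21 was lower. Whether AGL21 bears on them was not tested.

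**Figure D4:**
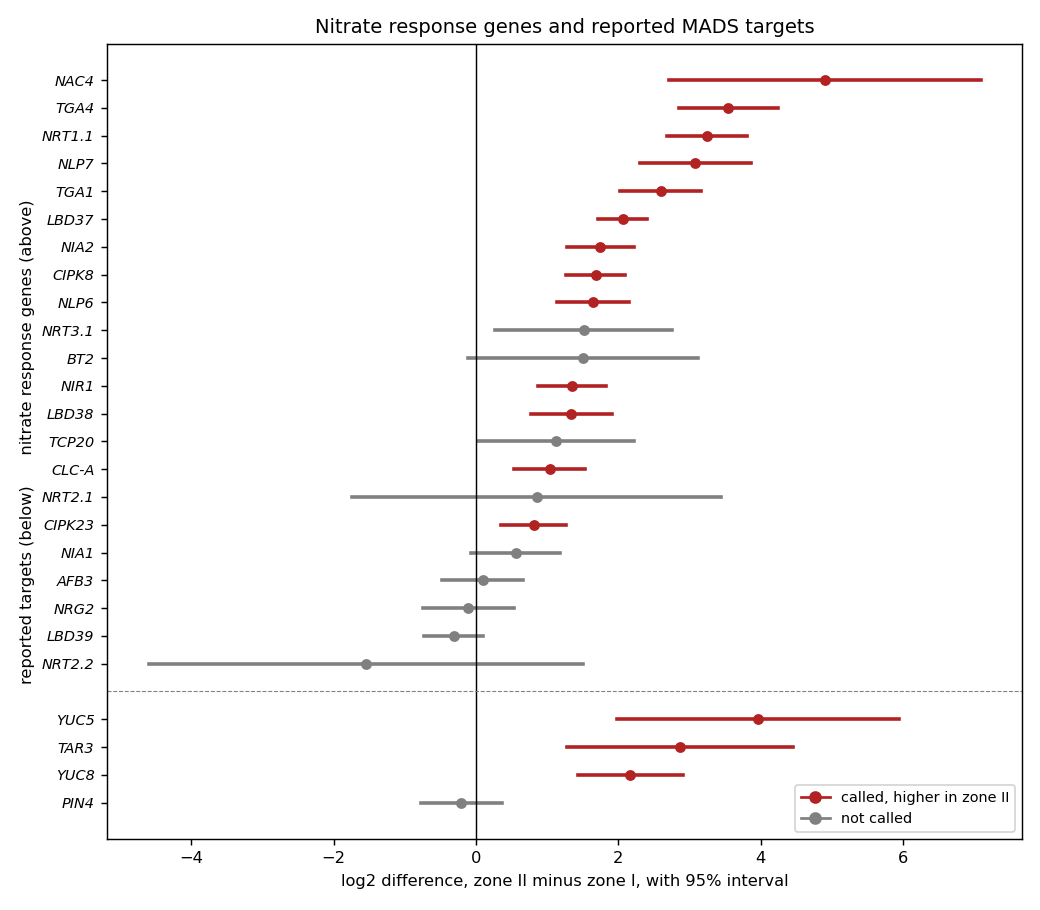
Log2 difference, zone II minus zone I (horizontal axis), with 95% intervals from limma for 22 nitrate response genes (above the dashed line) and 4 reported targets of XAL2 or AGL21 (below it). Red marks genes called higher in zone II and grey those not called. The 13 called nitrate genes all lie to the right of 0, as do YUC5, YUC8 and TAR3, while PIN4 lies at -0.21.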

How the data were processed

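The authors deposited 1 table of signal intensity for 22810 probe sets, credited to MAS5 and Affymetrix Expression Console per the submitters' processing notes. Their versions and settings, and the design of the array, were not found in the labels or headers. On every array the mean without the lowest and highest 2% was 500. The authors also deposited a table with a log2 fold change, p-value and adjusted p-value per probe set, and its Transcript column gave the loci. Signals were converted to log2 here without an offset, and 64 control probe sets were left out. Zones were compared by lmFit and eBayes of limma 3.58.1 under R 4.3.3, with an intensity trend, two-sided, with no block, over all 22746 probe sets. The fit was checked on simulated data. The exact permutation tests used scipy 1.17.1, and matplotlib 3.10.9 drew the figures.

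Symbols came from the TAIR10.1 gene table, in which 22091 of 22591 loci were found. No build is named for the arrays, so no coordinates are printed. Members, lists and markers were chosen with earlier results of these data known. All members, every called gene of a list, the largest difference of a list without calls and the 3 nearest genes of each brighter member could be named; AGL71, AGL72 and some list genes that did not pass were added after their values were seen. Other MADS-box genes came from fixed lists and from annotation text. The replicate numbers did not pair the arrays by the rule used, and the number of arrays limits the precision. A further reported target is not reported here.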

Additional observations from a re-analysis of the deposited data

How the results depend on the processing

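The calls of XAL1, AGL16 and AGL17 held under all 17 alternatives, with differences of 1.75 to 2.21, 1.21 to 1.46 and -1.19 to -1.06 when single arrays were left out. AGL21 lay at -0.81 to -0.66 then, and lost its call without the intensity trend (-0.73, limma adjusted p = 0.0578), which left 1 gene higher in zone I. AGL42 lay at 0.51 to 0.95 with single arrays left out, and passed with array weights (0.71) and in the authors' deposited table (0.79). AGL19 lay at -3.81 to -2.13, and passed after quantile normalization (-2.99). XAL2 lay at -0.53 to 1.76 and ANR1 at 0.71 to 3.01, and their signs turned in the authors' deposited table (-0.0977 and -0.0333). The cause was not tested. With single arrays left out the count of called genes was 4 to 5, with 2 to 3 in each direction.

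With the replicate number as a block the differences did not change, AGL42 passed (0.66, limma adjusted p = 0.0219), and no other of the 8 genes changed its call. Same-numbered arrays of the zones correlated at 0.0041, 0.036 and 0.0373 in their deviations from the zone means. Each array correlated best with its own number, which is a hint from the data and not the design. When array 1 was dropped from each zone, the same 4 genes were called, at 1.82 (XAL1), 1.39 (AGL16), -1.01 (AGL17) and -0.69 (AGL21). Counts over the 67 other MADS-box genes were 0 to 4 toward zone II and 0 to 3 toward zone I. When dim probe sets were left out, 1 of the 4 reported targets, YUC8, was called higher in zone II. YUC5 and TAR3 were then removed and not tested. That filter also removed AGL19, XAL2 and ANR1. Signal near the noise of the probe sets limits what these 3 can show.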

Other observations

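The genes next to the 8 root MADS-box genes on the chromosomes, by their order in the TAIR10.1 gene table, were looked up after the members' values were seen. Of 16 neighbours 15 were measured, and limma called 6, of which 4 were higher in zone II and 2 lower there, at an adjusted p under 0.05. That is close to the 37.9% called among all probe sets. The peroxidase gene AT1G71695, next to XAL1, lay at 3.01 ± 0.41. AT2G22620, annotated as a lyase and next to AGL17, had geometric mean signals of 1263 (zone II) and 51.6 (zone I), or 4.61 ± 0.33 on the log2 scale (SE, n = 3 per zone). SHM1 and AT4G37950, on either side of AGL21, lay at 2.16 and 4.60 (1.88 and 2.46 with 64 added). AT3G57220, next to AGL16, lay at -0.95, with arrays that overlapped between zones. It lost the call without zone I array 2 or 3 or zone II array 1 or 3, at a limma adjusted p of up to 0.107, and ranged from -1.28 to -0.68 with single arrays left out. TRM25, next to AGL42, lay at -3.82 (-1.72 with 64 added).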
